A study of Mus musculus with 8 samples.

Results

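The mouse array used here carries, beside its gene probes, probes for candidate long intergenic noncoding RNAs (lincRNAs). Each is named in the scanner files only by a genomic interval of the mm9 build and a strand, F for forward and R for reverse, with no gene symbol. There were 4429 such regions on autosomes 1 to 19, covered by 15604 probes, and 3387 of them (76.47%) were kept. They were selected on the array's own detection flag: in 1 group or more, a probe had to be called well above background on each of the 2 arrays. Detection counts below are therefore descriptions. The table of all features held 37208 entries, of which 24150 genes and regions were tested, 3385 of them regions of this kind. The remaining 2 kept regions lacked a value on an array. A further 178 X-linked regions were outside the selection.

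The study sorted dendritic cells from mouse thymus by the surface receptor Sirpa and by maturation status, and hybridised 2 samples of each of the 4 subsets to 8 single-colour (Cy3) arrays on 1 slide. The groups were Sirpa-positive immature (arrays 3 and 5), Sirpa-positive mature (arrays 1 and 6), Sirpa-negative immature (arrays 4 and 7) and Sirpa-negative mature (arrays 2 and 8), numbered as in the sample titles. The labels give no strain, age, genotype or treatment beyond the sort, nor the mice or sorts behind the 2 samples of a group, so the p-values measure only the spread between these samples. The series was set up to compare the 4 subsets with each other, around the role of CD40 in dendritic cell maturation.

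Long intergenic noncoding RNAs are transcripts that lie between protein-coding genes and encode no known protein. Some act on genes near their own site of transcription, some act elsewhere in the cell, and for many the transcription itself, not the RNA, is what is known to matter. Several host the precursor of a microRNA, and their levels are often restricted to a cell type or an activation state. In the thymus, dendritic cells present self antigen to developing T cells. Sirpa-positive cells correspond largely to type 2 and Sirpa-negative cells largely to type 1 conventional dendritic cells, and on maturation both raise Ccr7 and costimulatory receptors such as Cd40.

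The sort was visible on the arrays. All 8 listed genes of mature dendritic cells rose with maturation in both subsets, with summed linear levels of 22.57 to 38.58 on immature and 309.6 to 478.4 on mature arrays (relative to the 75th percentile of each array). Among immature cells, 6 of 6 measured type 1 genes were lower and 6 of 7 type 2 genes higher in the Sirpa-positive sort, and Sirpa itself was 6.83 log2 units higher. The 6 general dendritic cell genes were above background in all groups. Of the other cell types listed, the epithelial genes Krt8 and Psmb11 and the natural killer genes Ncr1 and Klrb1c were not well above background in any group, while Epcam, Krt5, Aire and Nkg7 were in all 4. All 6 plasmacytoid dendritic cell genes were well above background in all 4 groups, with summed levels of 104.6 to 137.7 over the arrays. At most 2 of these 6 were higher and at most 1 lower in any comparison. The 75th percentile of the processed signal lay between 147.3 and 313, and 52.85% to 65.48% of spots were well above background. Having only 2 arrays per group limits the precision of every value below.

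A region was 62 to 7128487 bp long, with a median of 10745 bp (quartiles 1791 and 25940 bp), and had 1 to 10 probes with a median of 3. Both strands were kept about equally often, 76.33% of 2231 forward and 76.62% of 2198 reverse regions. The share kept went from 63.18% of regions with 1 probe to 95.57% of those with 6 to 10 probes, so a region with more probes had more chances to pass. It also went from 65.42% of regions up to 1 kb long to 83.09% of those over 20 kb. Region probes were detected less often than the other probes of the same array, 43.09% to 59.74% against 56.04% to 67.72%.

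Most kept regions were detected everywhere. In all, 2638 (77.89%) were well above background in all 4 groups, 265 in 3, 230 in 2 and 254 in 1, and 230 of those 254 passed through a single probe. By group, 3185 were detected in Sirpa-positive immature, 2899 in Sirpa-positive mature, 2892 in Sirpa-negative immature and 3085 in Sirpa-negative mature cells. Within each group the array on the upper slide row had the larger share of region probes above background, for example 59.2% on array 1 against 43.09% on array 6 of the Sirpa-positive mature cells. Of the 1042 regions not kept, 635 still had a probe above background on single arrays and 407 had none on any array. The signals on either side of the boundary overlapped. On array 7 the dimmest region probe above background had a signal of 9.335 and the brightest one not above it 12.24.

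Detection in 1 group only was rarely clear-cut. The groups' own counts were 135 for Sirpa-positive immature, 55 for Sirpa-negative mature, 40 for Sirpa-negative immature and 24 for Sirpa-positive mature cells. In the same order, 49.82%, 48.28%, 43.76% and 43.09% of region probes were above background on the lower array of the group. The part of this array difference in the counts was not tested, and no matching count over all features is given. Only 4 regions in all had no array above background elsewhere. These 4 were chr8:70603786-70604243_R, chr1:69566918-69567447_R, chr16:91198576-91199149_F and chr3:117399569-117474050_F. The last was the only one that stood well clear of the detection limit. Its single probe read -2.31 and -1.89 (log2 signal minus the array's 75th percentile, the scale of every level below) on Sirpa-negative immature arrays 4 and 7. It read -4.07 and -4.47 on the Sirpa-negative mature arrays and -5.42 to -6.69 on the Sirpa-positive ones, none of which was above background. The Sirpa-negative immature level was at least 3.58-fold higher than in any other group, against the detection limit as a floor. For chr8:70603786-70604243_R in Sirpa-positive immature cells the same bound was 1.06-fold, and for the other pair no bound above 1 could be given.

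With maturation, a smaller share of these regions than of all features passed the threshold. In Sirpa-positive cells, 131 of 3385 regions (3.87%) passed an adjusted p of 0.05 (limma, Benjamini-Hochberg over all 24150 features), 92 higher and 39 lower. Of all features 7.08% passed, 4.45% higher and 2.63% lower. Among the 2811 regions with a probe well above background in both groups, 108 passed, 75 higher and 33 lower. Of all such features 6.71% passed (4.11% higher and 2.6% lower). A region's level averages all its probes, so probes below background can still enter these values. In Sirpa-negative cells 270 regions (7.98%) passed, 166 higher and 104 lower, against 16.3% of all features (9.16% higher and 7.16% lower). Of 2783 regions above background in both groups 229 passed, 132 higher and 97 lower, against 15.8% (7.96% higher and 7.85% lower). Median differences over the regions were near those of all features, 0.12 against 0.03 in Sirpa-positive and 0.04 against -0.01 in Sirpa-negative cells. The shares are not measured alike, here and between the subsets, since a gene was its probe with the highest mean and a region averaged all its probes. With the highest-mean probe per region the maturation counts were 116 and 313, and with the mean of detected probes 146 and 361. In bulk RNA of sorted cells, fewer cells of a type and less RNA per cell cannot be told apart.

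Between the subsets, fewer regions were called among mature than among immature cells. Among immature cells 187 regions (5.52%) differed, 83 higher and 104 lower in Sirpa-positive cells, against 11.7% of all features (7.22% higher and 4.52% lower). Above background in both groups, 64 were higher and 87 lower of 2800, against 10.1%. Among mature cells 69 (2.04%) differed, 20 higher and 49 lower, against 5.57% of all features (3.38% higher and 2.18% lower), and 16 were higher and 38 lower of 2802 above background in both, against 4.55%. Of all features of the second kind 5.59% were higher and 4.51% lower among immature and 2.64% higher and 1.91% lower among mature cells. The direction of the balance among immature cells was not stable: the share of called regions that were higher was 44.39%, but 53.07% with quantile normalization, 53.94% with median scaling, 51.08% with the highest-mean probe and 50.45% with the mean of detected probes. Median differences were -0.23 over the regions and -0.13 over all features among immature cells, and -0.14 and -0.09 among mature cells.

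**Figure D1:**
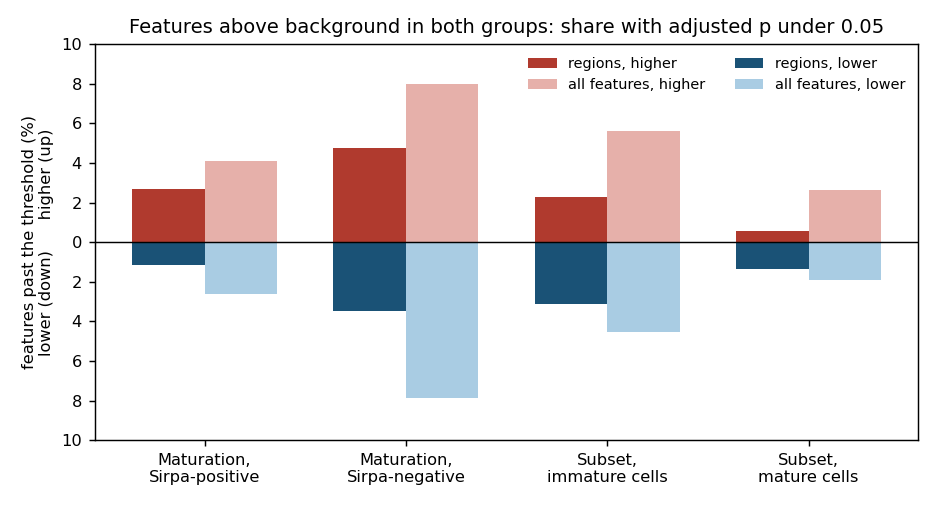
Bars give the percentage of features with adjusted p under 0.05 in each of 4 comparisons (mature minus immature, or Sirpa-positive minus Sirpa-negative). They run up from 0 for higher and down from 0 for lower values. Features counted are those with a probe well above background in both groups. Dark bars are the intergenic regions and pale bars all features of the array; the dark bar is the shorter one in every comparison and direction, for example 4.74% against 7.96% for rises in Sirpa-negative cells.

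These counts fell when single arrays were left out. Each such fit leaves 1 array in a group and less to estimate the spread from, so counts can fall whatever that array held. How far any array carried the counts was not tested. The same limit holds for calls of single regions given below as lost without an array. With 1 array of the compared groups left out, the Sirpa-positive maturation count fell from 131 to 60 without array 1, 29 without array 6, 32 without array 3 and 26 without array 5. The Sirpa-negative maturation count fell from 270 to 136 without array 2 and 161 without array 4, and was 190 and 193 without arrays 8 and 7. The immature subset count fell from 187 to 58 without array 3, 85 without array 5 and 104 without array 4, and was 177 without array 7. The mature subset count fell from 69 to 35 without array 2, 20 without array 8, 31 without array 1 and 21 without array 6, and to 44 without array 3 or array 5. Scaling moved the balance of directions as well. The share of called regions that were higher was 70.23% for Sirpa-positive maturation but 57.14% with normexp correction and quantile normalization, 60% with quantile normalization, 59.2% with median scaling and 57.75% with the authors' deposited values. For Sirpa-negative maturation the same shares were 61.48%, against 49.65%, 53.2%, 52.96% and 54.15%, and for the mature subset difference 28.99%, against 49.3%, 45.45%, 42.11% and 45.45%.

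Genes listed for other cell types moved with these comparisons. Of 14 thymocyte and T cell genes, 5 rose with maturation in Sirpa-positive and 10 in Sirpa-negative cells and none fell, with summed levels of 40.37 to 47.32 and 58.09 to 60.12 on Sirpa-positive immature and mature arrays and 27.38 to 40.63 and 66.23 to 90.44 on Sirpa-negative ones. These sums are weighted towards the brightest genes, such as Cd4 in Sirpa-positive (4.16 to 5.07) and Cd8a in Sirpa-negative cells (3.88 to 5.35). Cd4 and Cd8a themselves differed between the subsets, by 3.26 and -3.66 among immature cells. Rag2 was not above background in either Sirpa-positive group, and Rag1, Rag2 and Themis were not in Sirpa-negative immature cells. Of 7 macrophage and monocyte genes, 7 were higher in Sirpa-positive cells among immature and 6 among mature cells, with summed levels of 101.5 to 132.3 and 62.62 to 72.29 against 12.84 to 14.41 and 10.57 to 11.24. Mertk was not above background in Sirpa-negative cells. Of the 4 thymic epithelial genes tested, Aire rose with maturation in both subsets (2.29 and 2.86), Krt5 rose in Sirpa-negative cells (1.71) and Epcam fell in Sirpa-positive cells (-1.75), and Epcam and Krt5 were higher in Sirpa-positive immature cells (2.14 and 1.89). The 4 genes' summed levels were 8.286 to 12.82 and 4.671 to 5.549 on Sirpa-positive immature and mature arrays and 2.251 to 2.969 and 5.187 to 6.33 on Sirpa-negative ones. Of 3 B cell genes tested, Cd79a and Pax5 passed in no comparison. Ms4a1 rose with maturation in Sirpa-positive cells (3.099, limma adjusted p = 0.00468). Among immature cells it was lower in the Sirpa-positive subset (-3.947, limma adjusted p = 0.0005265). Ms4a1 was above background on both arrays in Sirpa-negative cells only, so both differences rest on Sirpa-positive levels that were not. The part of these cells in the region values was not tested.

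The region with the largest rise in each subset lay in a locus of 8576 bp on chromosome 16. It held 5 regions over 4 intervals between 84702353 and 84710928, of which 4 were 3.82 to 4.52 log2 units higher in mature than in immature cells of both subsets, and the fifth was measured in mature cells only. The forward probes of the whole interval, chr16:84702353-84710928_F, read -0.59 and -0.86 on Sirpa-positive immature arrays 3 and 5 and 3.67 and 3.42 on mature arrays 1 and 6. They read -0.68 and -0.96 on Sirpa-negative immature arrays 4 and 7 and 3.62 and 3.59 on mature arrays 2 and 8. All 4 mature arrays thus lay far above all 4 immature ones, and no region of the locus passed the test between subsets in either state. The rise was 4.27 (SE 0.21, n = 2 arrays per group, 19.3-fold, adjusted p = 0.000632) in Sirpa-positive and 4.42 (SE 0.21, 21.5-fold, adjusted p = 0.000277) in Sirpa-negative cells.

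The reverse probes of that interval, chr16:84702353-84710928_R, rose alike, by 4.28 (SE 0.24, adjusted p = 0.000632) and 4.52 (SE 0.24, adjusted p = 0.000277), from -0.88 and -1.17 to 3.51 and 3.01 and from -1.11 and -1.36 to 3.24 and 3.34. Both strands of the interval were therefore raised, each by 3 probes that differed little among themselves: the lowest and highest probe of the forward region rose by 4.19 and 4.41 in Sirpa-positive cells. The short reverse region chr16:84708005-84708675_R rose by 4.09 (SE 0.29, adjusted p = 0.00106) and 3.82 (SE 0.29, adjusted p = 0.00058). The 112 bp forward region chr16:84708695-84708806_F, with 1 probe, rose by 4.29 (SE 0.32, adjusted p = 0.0012) in Sirpa-positive cells. In Sirpa-negative immature cells only 1 of 2 arrays measured it, and its difference there was 4.38. The remaining region, chr16:84707202-84707748_F, was not above background on any immature array (-5.55 to -6.25) and lay between -0.44 and -0.96 on the mature ones, at least 12.3-fold higher in Sirpa-positive mature cells. Alternatives were computed for all 5 regions in Sirpa-positive cells and for the 4 others in Sirpa-negative cells, and each of these calls held under every one.

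**Figure D2:**
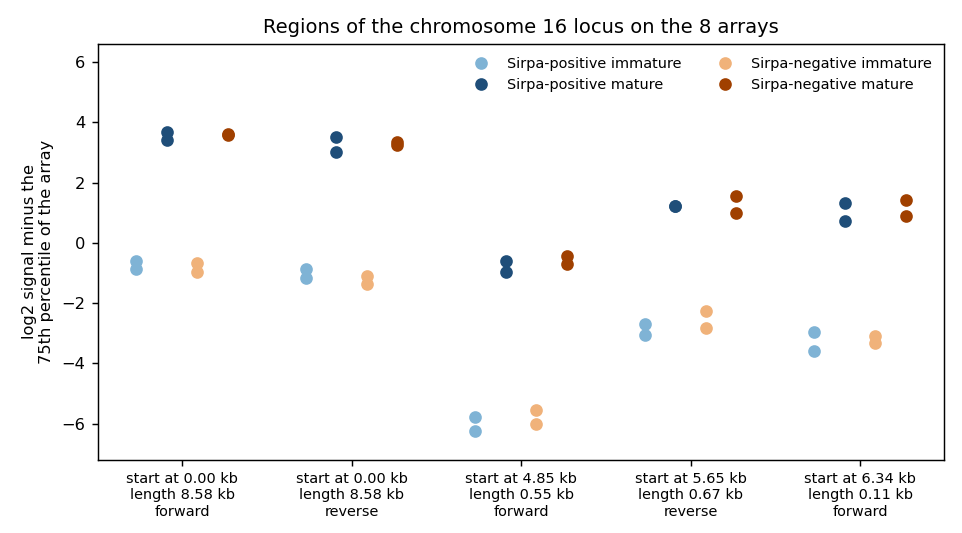
Each point is 1 array; the vertical axis is the level on the log2 scale given above, and the 5 positions are the regions of the chromosome 16 locus, given by their start within the locus, length and probe strand. In every region the 4 mature arrays lie above the 4 immature ones, and the Sirpa-positive and Sirpa-negative points overlap or nearly so; heights of different regions come from different probes and are not comparable.

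On chromosome 10, 3 places are described. The forward region chr10:95729303-95755173_F read -2.28 and -2.15 on Sirpa-positive immature and 1.24 and 1.05 on mature arrays, and -2.47 and -2.63 on Sirpa-negative immature and 1.25 and 1.06 on mature arrays. The mature values of the subsets coincided and both rises passed, 3.35 (SE 0.20, adjusted p = 0.000648) and 3.70 (SE 0.20, adjusted p = 0.000277). A second locus, chr10:94848446-94928059, had 3 of 5 regions raised in each subset, by 1.77 to 2.94 and 1.78 to 3.84. The last value is that of chr10:94850300-94855601_R, for which 1 of 2 Sirpa-negative immature arrays was above background. The pair that did not pass in either subset covers the far end of it, chr10:94900849-94928059, on both strands, with differences of 0.29 and 0.32 in Sirpa-positive and -0.06 and -0.05 in Sirpa-negative cells.

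Another place, chr10:93774693-93977476, rose unequally in the 2 subsets. All 6 of its regions passed in Sirpa-negative cells, by 2.15 to 3.91, and 5 of 6 in Sirpa-positive cells, by 0.99 to 1.45. Its region chr10:93774693-93893616_F read 0.15 and -0.18 on Sirpa-positive immature and 1.60 and 1.26 on Sirpa-positive mature arrays. It read -1.89 and -2.40 on Sirpa-negative immature and 1.83 and 1.70 on Sirpa-negative mature arrays. The Sirpa-negative immature arrays were the low ones, and the 3 other groups were closer to each other. Among immature cells all 6 regions were higher in the Sirpa-positive subset, by 1.06 to 2.15 (all past the threshold), and among mature cells they differed by -0.47 to -0.11. The difference between the maturation effects of the subsets (the interaction) was -2.46 (SE 0.37, adjusted p = 0.0785) for this region and -1.17 to -2.58 over the 6, with adjusted p of 0.0785 to 0.317, so it did not pass.

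No region passed the interaction test anywhere (limma, 0 of 3385 regions and 0 of all features; at an unadjusted p under 0.05, 146 regions, 4.31%, against 8.01% of all features). The count depended on the settings. It was 10 with the authors' deposited values, 9 with normexp and quantile normalization, 10 with trended and robust variances, 10 among features above background on all 8 arrays and 1 with median scaling. Of those 10, 9, 10 and 10, the chr10:93774693-93977476 locus gave 5, 4, 4 and 4. The regions called under at least 4 of these settings also included both strands of chr14:55433382-55452757 and chr5:96591892-96606467, and chr19:29546348-29596479_R, which are described with the subset differences below.

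On chromosome 6, 2 loci held many raised regions. The wider, chr6:30983012-31293337, held 15 kept regions over 11 intervals, and all 15 were higher in mature cells of both subsets. Of these, 11 passed in Sirpa-negative cells (1.02 to 3.12) and 4 in Sirpa-positive cells (1.30 to 1.69). Among the 11, chr6:31233512-31241062_R was not above background on the Sirpa-negative immature arrays and was at least 4.21-fold higher when mature. The largest was chr6:31170350-31287353_F, which read -3.28 and -3.75 against -1.72 and -1.92 in Sirpa-positive and -4.10 and -4.39 against -0.82 and -1.42 in Sirpa-negative cells. In the last group of immature arrays 1 of 2 was above background. The Sirpa-positive rise was 1.69 (SE 0.28, adjusted p = 0.0155). In the narrower locus, chr6:121035216-121061074, 7 of 8 regions passed in Sirpa-negative (1.33 to 2.82) and 6 of 8 in Sirpa-positive cells (1.14 to 2.05). The value of 2.82 belongs to chr6:121036929-121037581_R, which was not above background on the Sirpa-negative immature arrays and was at least 2.99-fold higher when mature. Its longest interval rose on both strands, the forward probes by 1.94 (SE 0.29, adjusted p = 0.0105) and 2.09 (SE 0.29, adjusted p = 0.00404).

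**Figure D3:**
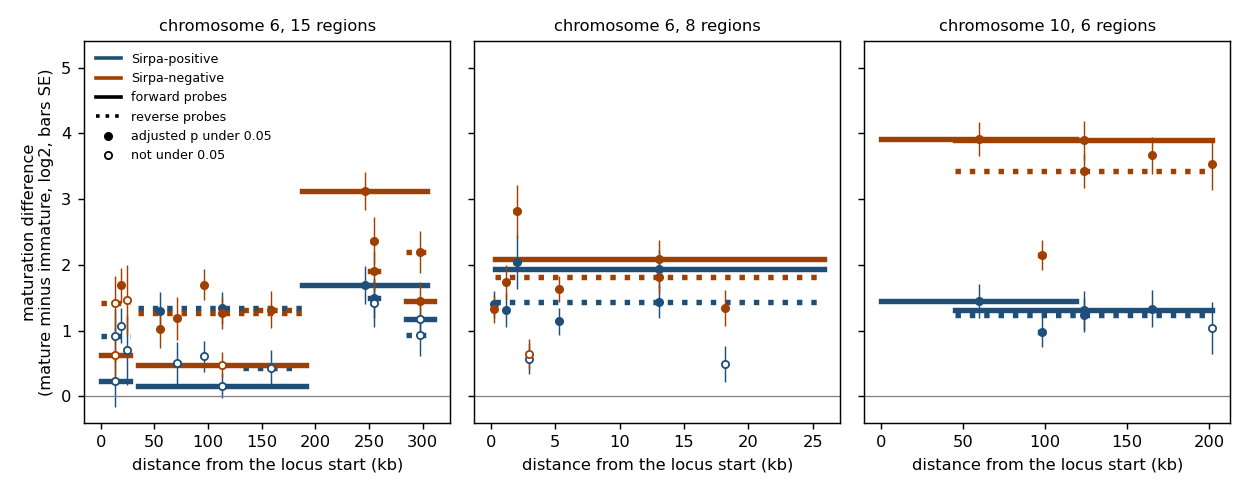
Each horizontal line is a region of 1 of 3 loci with the most called regions in Sirpa-negative cells, placed by its distance in kb from the start of the locus, with its mature minus immature log2 difference on the vertical axis, its SE as a vertical bar, and a filled point where the adjusted p was under 0.05 (regions above background in only 1 of the compared groups included). All differences in the 3 loci lie above 0, and on chromosome 10 the Sirpa-negative values, 2.15 to 3.91, lie above the Sirpa-positive ones, 0.99 to 1.45.

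Smaller loci rose as blocks in both subsets. On chromosome 9, the 3 reverse regions of chr9:40266027-40271031 rose by 1.49 to 2.51 in Sirpa-positive and 2.01 to 2.95 in Sirpa-negative cells, where chr9:40270437-40271031_R was above background on 1 of 2 immature arrays. The first of them, chr9:40266027-40266460_R, read -3.02 and -2.90 on Sirpa-positive immature and -0.43 and -1.12 on Sirpa-positive mature arrays, and -2.55 and -3.46 against -0.13 and 0.02 in Sirpa-negative cells. Mature and immature arrays did not overlap in either subset. On chromosome 11, 3 of 4 regions of chr11:53574182-53672731 rose, led by chr11:53596919-53672731_R with 2.72 (SE 0.27, adjusted p = 0.00255) and 3.02 (SE 0.27). Its 3 probes were far apart, with rises of 1.15 to 4.09 and 1.91 to 3.67. Over the alternatives its Sirpa-positive difference ran from 0.85 to 3.04. The remaining region, at the start of the locus, differed by -0.38 and 0.15. All 3 regions of chr8:119090566-119097735 rose too, by 1 to 1.38 and 0.92 to 1.09, as did the 3 of chr17:88466300-88495175, by 1.62 to 2.16 and 1.48 to 2.2, of which chr17:88466300-88495175_F was not above background on the immature arrays.

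The levels of 2 further regions with large rises are given without a test, since the dimmer group was above background on 1 of 2 arrays. The reverse region chr9:96632664-96653249_R read -5.13 and -5.95 on Sirpa-positive immature and -1.48 and -1.66 on mature arrays. The reverse region chr4:132897264-132910714_R read -3.75 and -5.36 on Sirpa-negative immature and -0.61 and -1.15 on mature arrays, and -1.18 and -1.40 against 0.72 and 0.36 in Sirpa-positive cells.

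Among called regions, falls with maturation were smaller than rises, and these sizes were not set against those of all features. In Sirpa-positive cells the median called rise was 1.49 and the median called fall -1.28, and 26 rises but 3 falls exceeded 4-fold. In Sirpa-negative cells the medians were 1.61 and -1.14, with 52 and 2 beyond 4-fold. These figures include regions not above background in both groups, whose sizes rest partly on the detection limit. They were 17 rises and 6 falls in Sirpa-positive and 34 rises and 7 falls in Sirpa-negative cells. The fall that held best in Sirpa-positive cells was chr13:3477100-3497843_R, with 1 probe, which read -0.45 and -0.12 on immature and -2.29 and -2.11 on mature arrays. It fell by 1.91 (SE 0.21, 3.76-fold, adjusted p = 0.00407) and kept its call under all 20 alternatives. In Sirpa-negative cells it read -0.32 and -0.51 against -1.55 and -1.73.

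Larger falls in Sirpa-positive cells were less certain. The forward region chr15:61870759-61938796_F read -2.36 and -1.88 on immature and -4.74 and -3.94 on mature arrays, a difference of -2.22 (SE 0.45, adjusted p = 0.0291). Its call was lost without array 3 (adjusted p = 0.101), 5 (0.17), 1 (0.123) or 6 (0.0707), without array 2 or 8 of the other subset (0.0524 each), with no filter on dim probes (0.11) and with the highest-mean probe (0.0571). The forward region chr11:97276846-97310021_F read -1.46 and -0.84 against -2.85 and -3.62, a difference of -2.09 (SE 0.35, adjusted p = 0.0154) that was lost without array 5 (0.104) or 6 (0.0875) and with no filter (0.0705). The 600 bp reverse region chr3:60288326-60288925_R fell in both subsets. It read 0.54 on both Sirpa-positive immature arrays and -1.48 and -1.35 on the mature ones, and 0.80 and 1.53 against -0.79 and -0.35 in Sirpa-negative cells. Its differences were -1.95 (SE 0.29, adjusted p = 0.0101) and -1.74 (SE 0.29, adjusted p = 0.00796). The first was lost without array 3 (0.0693), 5 (0.0699), 1 (0.0528) or 6 (0.0613) and with no filter (0.0533), the second without array 2 (0.053).

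Falls also came in blocks. Both strands of chr8:26343277-26352902 fell in both subsets, the forward probes by 1.55 and 1.76 and the reverse probes by 1.71 and 1.57 in Sirpa-positive and Sirpa-negative cells. Forward levels were -1.43 and -1.46 against -2.94 and -3.04 in Sirpa-positive and -1.47 and -0.80 against -3.13 and -2.65 in Sirpa-negative cells. The forward call held under all 20 alternatives in Sirpa-negative cells (adjusted p = 0.0071). In Sirpa-positive cells (adjusted p = 0.0208 forward, 0.0141 reverse) both strands were lost with no filter (0.091 and 0.0677) and without array 3 (0.119 and 0.0843), 5 (0.114 and 0.0968), 6 (0.113 and 0.0906), or 1 (0.0749 and 0.0509). The forward call was lost with the highest-mean probe (0.0627) too.

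On chromosome 14, the 6 regions of chr14:33895294-34003394 all lay lower in mature cells of both subsets, by 0.90 to 1.92 in Sirpa-positive and 1.07 to 1.74 in Sirpa-negative cells, and 4 passed in the latter. Its reverse region chr14:33975934-33998694_R read 2.98 and 3.55 against 1.44 and 1.70 in Sirpa-positive cells, a fall of 1.69 (SE 0.25, adjusted p = 0.0109), lost with no filter (0.0574) and without array 5 (0.0745), 1 (0.0569) or 6 (0.0546). In Sirpa-negative cells it read 3.41 and 3.29 against 1.71 and 1.98, a fall of 1.51 (SE 0.25, adjusted p = 0.00862). The 2 strands of chr14:33923944-34003394 fell by 1.73 and 1.74 in Sirpa-negative cells (adjusted p = 0.0431 forward, 0.0481 reverse). These calls were lost in 10 of 20 alternatives each, among them the slide row as a block (0.0652 and 0.0719) and the fits without array 7 (0.177 and 0.194) or 2 (0.205 and 0.21). They were also lost without array 3 or array 5 (0.0596 and 0.0752 for either) and without array 1 or array 6 (0.0674 and 0.0735 for either).

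In Sirpa-negative cells 3 further falls kept their call under all 20 alternatives. The reverse region chr16:89961600-89971725_R read 2.26 and 2.18 on immature and 0.36 and 0.75 on mature arrays, a fall of 1.66 (SE 0.21, adjusted p = 0.00285), against 0.33 and 0.46 and then -0.46 and -0.42 in Sirpa-positive cells. The forward region chr8:85609155-85615170_F read 0.07 and -0.14 against -1.61 and -1.86, a fall of 1.71 (SE 0.21, adjusted p = 0.00247). The forward region chr14:70483555-70484159_F read -1.02 on both immature and -2.91 and -2.56 on mature arrays, a fall of 1.71 (SE 0.24, adjusted p = 0.00399). The largest fall there, chr1:141824450-141835125_F with -2.60 (SE 0.52, adjusted p = 0.0154), had mature arrays at -3.59 and -2.45. It was lost without array 4 (0.0533), 7 (0.0633) or 2 (0.088) and with no filter (0.0588).

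The subsets shared many of their maturation changes. The comparisons use different arrays, and 74 regions rose in both, 80.43% of the 92 that rose in Sirpa-positive and 44.58% of the 166 that rose in Sirpa-negative cells. For all features these shares were 83.16% and 40.4%. In the other direction 22 regions fell in both, 56.41% of 39 and 21.15% of 104, against 64.78% and 23.83% of all features. No region rose in one subset and fell in the other. Across the 3385 regions the differences correlated with r = 0.64 (0.68 over all features), as a description over features that share arrays within each comparison and are not independent.

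Among immature cells the largest difference between subsets was in chr3:30754871-30776438_F, higher in Sirpa-positive cells. Its 3 probes averaged 0.81 and 0.86 on Sirpa-positive immature arrays and -3.27 and -4.02 on Sirpa-negative immature ones, and -0.03 and -0.36 against -2.26 and -2.84 on mature arrays. Sirpa-positive arrays were above Sirpa-negative ones in both states, by 4.48 (SE 0.32, 22.3-fold, adjusted p = 0.000182) and 2.35 (SE 0.32, 5.1-fold, adjusted p = 0.00594). Both calls held under all 20 alternatives. On chromosome 2, chr2:119697845-119719245_F was bright in Sirpa-positive cells in both states (3.69 and 3.51, then 5.55 and 5.79) and in Sirpa-negative cells mainly when mature (0.71 and 0.09, then 4.25 and 3.73). It was higher in Sirpa-positive cells by 3.20 (SE 0.29, adjusted p = 0.00049) and 1.68 (SE 0.29, adjusted p = 0.0167). The second was lost without array 8 (0.098), 1 (0.0605) or 6 (0.104), with no filter (0.0766) and with the highest-mean probe (0.0665).

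A set of bright regions was low only on the Sirpa-negative immature arrays, like the chromosome 10 locus above. The reverse probes of chr14:55433382-55452757 read 3.56 and 3.71 on Sirpa-positive immature, 3.52 and 3.46 on Sirpa-positive mature, -0.04 and -0.13 on Sirpa-negative immature and 2.61 and 2.24 on Sirpa-negative mature arrays. Their subset difference among immature cells was 3.72 (SE 0.21, 13.2-fold, adjusted p = 7.3e-05), and 3.25 (SE 0.23, adjusted p = 0.000194) for the forward probes. The forward probes of chr5:96591892-96606467 read 3.43 and 3.62, 3.56 and 3.39, 0.21 and -0.07, and 2.79 and 2.35 in the same order of groups, a difference of 3.46 (SE 0.23, adjusted p = 0.000146), with 3.09 (SE 0.25) on the reverse strand. In both intervals the Sirpa-negative mature arrays stood between the Sirpa-negative immature and the Sirpa-positive ones. The reverse region chr19:29546348-29596479_R was low on the same arrays, with 0.57 and 0.23, 1.17 and 1.22, -2.52 and -3.16, and 0.56 and 0.37, a difference of 3.24 (SE 0.27, adjusted p = 0.00036), but its Sirpa-negative mature arrays read like the Sirpa-positive immature ones. All of these immature calls held under all 20 alternatives.

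On the Sirpa-negative side the leading region was chr4:109071198-109078776_F. It read 1.81 and 1.90 on Sirpa-negative immature and 1.52 and 1.62 on Sirpa-negative mature arrays, against -2.07 and -2.46 and -0.36 and -0.79 in Sirpa-positive cells. The subset difference was -4.12 (SE 0.24, 17.4-fold lower, adjusted p = 8.02e-05) among immature and -2.14 (SE 0.24, adjusted p = 0.00252) among mature cells, both held under all 20 alternatives. Its 5 probes differed by -4.67 to -3.63 among immature cells. A second set of 5 probes is named for nearly the same interval, chr4:109071198-109078714_F, with a smaller difference of -2.72 (SE 0.29, adjusted p = 0.00105) whose probes ran from -5.20 to -0.69. Among mature cells it differed by -1.80 (adjusted p = 0.0128), lost without array 8 (0.0846) or 6 (0.0697), with no filter (0.0627) and with the highest-mean probe (0.239).

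On chromosome 1, chr1:85304494-85305390_R read 2.04 and 2.16 on Sirpa-negative immature and 0.81 and 1.42 on Sirpa-negative mature arrays, against -1.43 and -0.96 and -1.21 and -1.28 in Sirpa-positive cells. It was lower in Sirpa-positive cells by -3.30 (SE 0.27, adjusted p = 0.000365) and -2.36 (SE 0.27, adjusted p = 0.00296), under all 20 alternatives. Its neighbourhood went the same way: of the 5 regions of chr1:85300475-85337483, 3 passed among immature cells and all 5 were lower. In the adjacent locus chr1:84947500-85185800 all 9 regions were lower in Sirpa-positive cells in both states, 4 past the threshold among immature (-1.66 to -1.03) and 5 among mature cells (-1.43 to -0.83, the first with 1 of 2 Sirpa-positive arrays above background). Another region of chromosome 1, chr1:72983462-72987115_F, read -0.65 and -0.51 and -0.76 and -0.35 in Sirpa-negative and -4.25 and -2.76 and -2.77 and -3.16 in Sirpa-positive cells. The differences were -2.93 (SE 0.45, adjusted p = 0.00608) and -2.42 (SE 0.45, adjusted p = 0.0247). Its 2 probes disagreed, with -6.10 and 0.24 among immature and -4.45 and -0.38 among mature cells, so 1 probe carried both calls. The second was lost without array 2 (0.0792), 8 (0.138), 1 (0.08) or 6 (0.14) and with no filter (0.0982).

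The 3 regions of chr16:23989160-24001037 were lower in Sirpa-positive cells in both states by nearly equal amounts, -1.93 to -1.65 among immature and -2.02 to -1.66 among mature cells. For chr16:23989160-23992539_F the arrays read -2.54 and -2.22, then -3.50 and -3.30 in Sirpa-positive and -0.76 and -0.24, then -1.44 and -1.31 in Sirpa-negative cells. Among mature cells its difference of -2.02 (SE 0.25, adjusted p = 0.00378) held under all 20 alternatives. The overlapping chr16:23992037-24001037_F, at -1.93 in each state (SE 0.27, adjusted p = 0.00358 and 0.00676), was lost in both with the highest-mean probe of its 7 (0.135 and 0.725). Other differences among mature cells that held under all 20 alternatives were chr4:86267450-86277650_F with -1.73 (SE 0.20), chr11:79529699-79530564_F with -1.71 (SE 0.22) and chr9:55786058-55797810_F with -1.70 (SE 0.21). In the other direction chr1:160888257-160910594_R (1.87, SE 0.21) and chr18:75518299-75524782_R (1.58, SE 0.21) did so too.

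**Figure D4:**
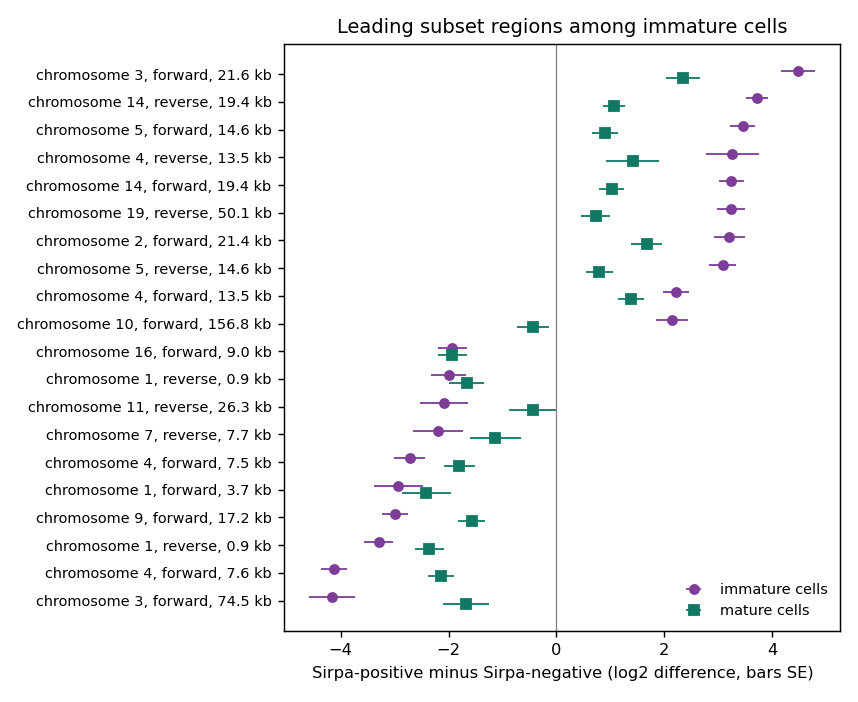
Points give the Sirpa-positive minus Sirpa-negative log2 difference, with its SE as a bar, for the 10 leading regions in each direction among immature cells (circles) and for the same regions among mature cells (squares). The regions were ranked on the circles (or on their lower bound), so those values are a description; the region of chromosome 10 is the only one whose squares and circles have opposite signs, 2.15 and -0.43, and 4 regions were not above background on all arrays of the dimmer immature group.

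The subset differences in the 2 states use different arrays as well. Of 20 regions higher in Sirpa-positive mature cells 18 (90%) were also higher when immature, which is 21.69% of the 83 called there. Of 49 lower ones 33 (67.35%) were also lower when immature, 31.73% of 104. No region was called in opposite directions. The correlation over the 3385 regions was 0.52, against 0.74 over all features.

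Both strands were probed for 1042 intervals, and for 804 of them (77.16%) both strands were kept. In 94 only the forward and in 75 only the reverse strand was kept, and in 69 neither. Over the 804 pairs the strands differed in the same direction in 73.76% for Sirpa-positive maturation, 69.28% for Sirpa-negative maturation, 78.98% for the immature and 73.63% for the mature subset difference, with r of 0.69, 0.72, 0.69 and 0.58 as descriptions. Among pairs with a call on at least 1 strand, the partner had the same sign in 40 of 43, 87 of 91, 68 of 69 and 20 of 21, or 215 of 224 in all (95.98%), a count in which an interval can enter for several comparisons of the same arrays. Where both strands were called, all 15, 40, 20 and 6 pairs had 1 direction. The strands of an interval share the arrays and the scaling. The share fell to 88.51% when a region was the mean of its detected probes only, and to 75.5% when it was its highest-mean probe.

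**Figure D5:**
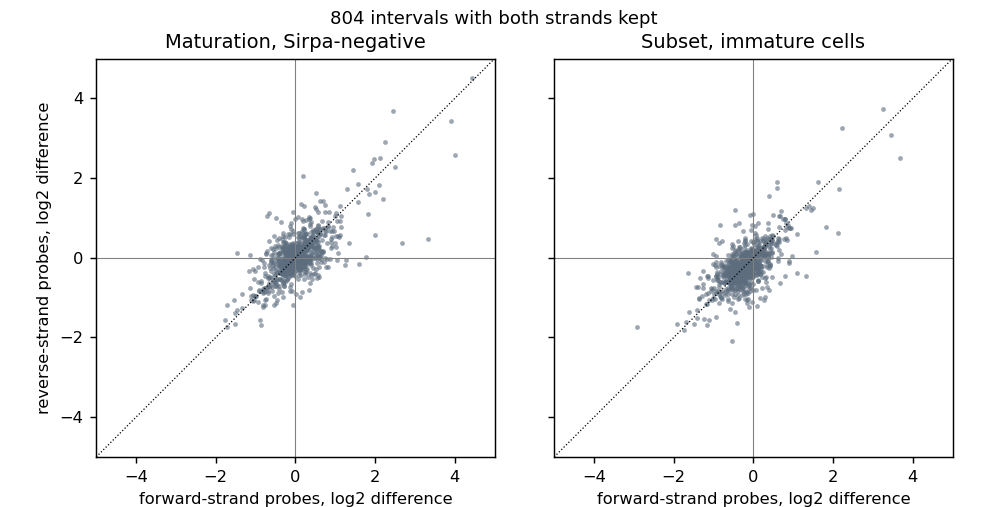
Each point is 1 of 804 intervals kept on both strands, with the log2 difference of its forward probes on the horizontal and of its reverse probes on the vertical axis, for Sirpa-negative maturation (left) and the immature subset difference (right); the dotted line marks equal values. Points lie along the line (r = 0.72 and 0.69).

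In each of the 9 exceptions 1 strand passed and the other did not, since all pairs called on both strands had 1 direction. For chr14:62263564-62308286 and chr10:83181374-83249774 the exception was in Sirpa-positive cells, and the Sirpa-negative values have the same sign on both strands. The forward probes of chr14:62263564-62308286 read -4.39 and -4.36 on Sirpa-negative immature and -1.09 and -1.01 on Sirpa-negative mature arrays, a rise of 3.32 (SE 0.18, 9.99-fold, adjusted p = 0.000277). The reverse probes read -4.93 and -3.79 against -3.50 and -4.30, a difference of 0.46 (SE 0.43, adjusted p = 0.538). In Sirpa-positive cells the forward probes were not above background when immature and at least 3.9-fold higher when mature, while the reverse probes differed by -0.12 (SE 0.43). Likewise chr10:83181374-83249774 rose on the forward strand by 2.24 (SE 0.28, adjusted p = 0.00595) and 2.68 (SE 0.28, adjusted p = 0.00146), against -0.17 (SE 0.34) and 0.38 (SE 0.34) on the reverse strand. The forward probes of chr12:33808493-33829143 rose by 1.60 (SE 0.25, adjusted p = 0.00621) in Sirpa-negative cells, against -0.15 (SE 0.34) on the reverse strand. In chr6:37732925-37784092 the reverse probes were higher in Sirpa-positive immature cells by 1.07 (SE 0.20, adjusted p = 0.0152) and the forward probes differed by -0.08.

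Where 2 or more neighbouring regions were called, the calls mostly had 1 direction. Regions within 100 kb of each other formed 1320 loci, 878 of them with at least 2 kept regions and the largest with 17. In the 4 comparisons 82, 169, 136 and 47 loci held a call, most of them a single one. In 31, 57, 36 and 17 loci at least 2 regions were called, and in 31, 56, 35 and 17 of them all calls had 1 direction. Agreement was not counted for regions that were not called, and no matching share over all features is given. Overlapping regions of a locus may be parts of 1 transcript and are not independent. The 2 mixed loci were chr8:74348539-74496948 for Sirpa-negative maturation and chr1:87343550-87452625 for the immature subset difference. In the first, chr8:74439200-74441363_F fell by 1.30 (SE 0.28, adjusted p = 0.0225) and chr8:74473445-74496948_F rose by 0.78 (SE 0.20, adjusted p = 0.0379). In the second, chr1:87348082-87409907_F was lower by -1.10 (SE 0.19, adjusted p = 0.00879) and chr1:87419050-87452625_F higher by 0.97 (SE 0.23, adjusted p = 0.0331).

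Probes of a called region usually had the same direction, with exceptions that decided some calls. Of called regions with at least 2 kept probes, all probes had the region's direction in 104 of 106 and 205 of 222 for Sirpa-positive and Sirpa-negative maturation, and in 122 of 148 and 54 of 57 for the immature and mature subset difference. The median SD between probes of a called region was 0.38 to 0.55. In chr4:132897264-132910714_F, higher by 2.22 in Sirpa-positive immature cells (SE 0.24, adjusted p = 0.00112), 1 of 2 probes differed by 4.46 and the other by -0.03. The brighter probe was the second, so the value with the highest-mean probe was -0.03 (adjusted p = 0.954). In chr8:41934312-41945487_F, higher by 1.51 in Sirpa-positive mature cells (SE 0.23, adjusted p = 0.0106), probes ran from -0.09 to 2.96 and the brightest gave -0.09 (adjusted p = 0.949). That call was also lost without array 2 (0.0546), 8 (0.0608) or 1 (0.055), with no filter (0.0564) and with normexp and quantile normalization (0.112) or the authors' deposited values (0.0578).

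Long noncoding RNAs that the array names by symbol were read beside these. Of 42 listed, 24 had a probe and 20 were tested. With maturation 3 of the 20 rose in Sirpa-positive and 4 in Sirpa-negative cells, where 4.45% and 9.16% of all features rose. Neat1, the scaffold RNA of nuclear paraspeckles, rose by 1.19 (SE 0.20, adjusted p = 0.0146) and 2.2 (SE 0.20, adjusted p = 0.00085). Its arrays read 1.46 and 1.30 against 2.50 and 2.65 in Sirpa-positive and 1.04 and 1.19 against 3.40 and 3.23 in Sirpa-negative cells, without overlap. The small nucleolar RNA host genes Snhg1 and Snhg12 rose by 1.24 and 1.21 in Sirpa-positive and by 1.17 and 2.07 in Sirpa-negative cells. The imprinted Peg13 rose by 2.35 with maturation in Sirpa-negative cells, and its maturation difference in Sirpa-positive cells was 1.35 (adjusted p = 0.0746). H19, also imprinted, read -3.20 and -3.17 in Sirpa-positive mature cells, where it was not above background, against -2.09 and -2.07 when immature. Between subsets, Kcnq1ot1 among immature cells (-0.78) and Snhg12 among mature cells (-1.21) were lower in Sirpa-positive cells, as was H19 among mature cells, against an undetected level. Malat1, an abundant nuclear RNA, differed by 0.54 (adjusted p = 0.375) and 0.20 (adjusted p = 0.707) with maturation.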

How the data were processed

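RNA of 8 sorted samples, 2 per group, was hybridised in 1 colour to Agilent arrays of the mm9 build, per the file headers. The deposited files give an intensity per spot, the processed signal of Feature Extraction, with flags for spots well above background; the submitters' processing notes name version 10.5 and limma, and the file headers version 10.7.3.1. The authors also deposited a table of log2 values, used only as an alternative. Its columns have medians of 5.99 to 6.01 and correlate with the log2 intensity of the same arrays at r = 0.96 to 0.98. Its scale is thus logarithmic with no centring of genes; which background correction and normalization made it is not given in the sources used here.

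From the intensities, control and outlier spots were left out, the log2 processed signal was set to each array's 75th percentile, probes sharing a region name were averaged, and a gene was its probe with the highest mean. A feature entered where, in 1 group or more, a probe was flagged well above background on each of the 2 arrays. A single limma fit (limma 3.58.1, R 4.3.3) over the 4 group means tested 24150 features, two-sided, with Benjamini-Hochberg adjustment and a threshold of 0.05. Tested on simulated data for Sirpa-positive maturation (24113 features, 50 changed at each size), the fit recovered 54% and 82% of changes of 2 and 3 log2 units, and 0% of changes of 0.5 and 1. It made 4 false calls. Far fewer features were changed there than the 1711 called in the data, and the adjusted p depends on that number. These shares therefore do not give the power of the real comparison, where called region differences went down to 0.80 log2 units.

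The regions, lists and tests were chosen with earlier results of these data known. Regions named are, per comparison, the 10 largest rises and falls past the threshold without overlap of the groups (by the lower bound where the dimmer group was below background), up to 5 regions detected in 1 group alone, and the strand partners and neighbours of these. The strand pairs with opposite signs, the mixed loci and the regions that passed the interaction test under other settings were added after their values were seen. Where a region was below background in a group, its lower bound is the mean of the brighter group over the lowest signal of a probe well above background or the probe's own, whichever was higher. Nearest genes and sequences are not given, because no mm9 annotation or genome was used here.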

Additional observations from a re-analysis of the deposited data

Results flagged for a closer look

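Among regions named for a subset difference, 2 were flagged. In these, every array pointed one way between the subsets in immature cells and the other way in mature cells. The region chr10:93774693-93893616_F, named for maturation and described above, reversed in the same way but was not flagged. The chromosome 10 region chr10:93819821-93976621_F, with 1 probe, was 2.15 higher in Sirpa-positive immature cells and differed by -0.43 among mature cells. Its levels were 0.75 and 0.59 on Sirpa-positive and -1.09 and -1.86 on Sirpa-negative immature arrays, and 2.16 and 1.81 against 2.30 and 2.54 on mature arrays. The interaction was -2.58 with an adjusted p of 0.0863 (limma), so the difference did not pass; 5 neighbouring regions had interactions of -1.17 to -2.49.

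The second flagged region was chr5:26333765-26338143_F, 1.40 higher in Sirpa-positive cells when mature and -0.88 when immature. It did not count as well above background in both mature groups, so its levels lie near the detection limit. It read -3.56 and -3.58 against -5.14 and -4.80 on mature and -5.36 and -5.61 against -4.23 and -4.97 on immature arrays. The interaction was 2.29 with an adjusted p of 0.101 (limma). Of 19 alternatives the mature call held in 7, and with the mean of its detected probes its adjusted p was 0.874. With 2 arrays per group no single array could be called an outlier.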

How the results depend on the processing

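Counts of called regions kept within 1.5 times their value under most settings. Without a filter on dim probes the counts were 34 and 123 for Sirpa-positive and Sirpa-negative maturation and 75 and 15 for the immature and mature subset difference. The slide row as a block gave 82 for Sirpa-positive maturation. The compared groups alone gave 145 for Sirpa-negative maturation and 33 for the mature subset difference. The interaction count of 0 became 9 with normexp and quantile normalization, 1 with median scaling and 10 each with the authors' values, with features above background on all 8 arrays and with trended and robust variances. Leaving out 1 array gave 26 to 129 and 136 to 236 regions for maturation, 58 to 177 and 20 to 59 for the subset differences, 0 for the interaction, 91.48% to 97.78% of strand pairs and 98% to 100% of loci in 1 direction. Strand pairs fell to 75.5% with the highest-mean probe and 88.51% with the mean of detected probes. Loci in 1 direction went from 98.58% to 100% with no filter, with slide row blocked and with the compared groups alone. The cause of these shifts was not tested, except that testing more dim features and fitting fewer arrays follow from how those settings are built.

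Of 20 regions named per comparison, 11, 14, 14 and 9 passed under each alternative that could be computed, in the order Sirpa-positive maturation, Sirpa-negative maturation, immature and mature subset difference, and 20, 18, 20 and 18 did so with slide row blocked. With the highest-mean probe 2 regions reversed, chr4:132897264-132910714_F to -0.030 (adjusted p = 0.954) and chr8:41934312-41945487_F to -0.087 (adjusted p = 0.949). Median scaling moved the median of all features by -0.10 and -0.11 for the maturation comparisons, and normexp with quantile normalization moved it by 0.10 for the immature subset difference. No replicate number pairs samples across groups, since the title numbers 1 to 8 are each used once. Each slide row, and each set of numbers 1 to 4 and 5 to 8, holds 1 array of every group and was fitted as a block; with the number sets the counts were 174, 320, 220 and 76. The planned share of regions whose nearest gene moved alike, and its distances of 10 and 200 kb, was not run, since no mm9 annotation was used here. Signal over background limits the detection of 1042 regions that were not kept.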
